A study of Homo sapiens with 2 samples.

Results

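Mitotic cardiomyocytes were the 1395 cells that carried both a heart muscle profile and at least 10 transcripts, counted as unique molecular identifiers (UMIs), of UBE2C, TOP2A, CDK1, AURKB and CCNB2 together. They were chosen by this rule from 18330 cardiomyocytes, which were themselves the cells in which TNNT2, ACTN2, TTN, TNNC1, MYL4, MYL7, MYBPC3, NEBL, TNNI1, MYOM1, LDB3 and SMPX summed to at least 20000 counts per 1000000 UMIs (CPM). The search covered the 21623 barcodes that showed 500 genes or more and 1000 UMIs or more, with no more than 25% of UMIs from mitochondrial genes. The matrix held 24038 barcodes. They made up 7.61% of the cardiomyocytes (exact Clopper-Pearson 95% interval 7.23% to 8.004%). All cells came from H9, a line of human embryonic stem cells carrying the fluorescent calcium reporter gCaMP6f, were differentiated to cardiomyocytes for 15 days, frozen and thawed, and were stained with antibodies that put a DNA barcode (a hashtag) on the cells of each stained sample before pooling. The pool gave 1 gene expression library and 1 hashtag library. The labels do not say what any of the 13 hashtags stood for, so values per hashtag are given as description, to show how they vary and whether they recur, and no value has a replicate of a known condition. No test was therefore possible. Every interval given is an exact 95% interval for counting error alone.

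Each mitotic cardiomyocyte was set beside 1 low-cycle cardiomyocyte, a cell of the same rule with at most 2 UMIs of the 5 mitotic genes, of nearly the same total UMIs. A cardiomyocyte that divides must copy its chromosomes, condense them, attach them through kinetochores to a microtubule spindle, separate them and pinch into 2 cells while it holds packed sarcomeres, the contractile units. Heart muscle cells divide before birth and largely stop soon after it, often ending with a cycle that divides the nucleus without the cell. Most genes of the last phases of the cycle are repressed in resting cells by the DREAM complex and activated later by MYBL2 and FOXM1, through a promoter element called the cell cycle homology region (CHR), often near a CCAAT box, while genes of DNA replication are mostly driven by E2F factors.

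The chosen cells held a median of 25636 UMIs (2468 to 115854) and 5378 genes, and a median of 2.05% mitochondrial UMIs, against 25632 UMIs, 5276 genes and 2.21% in their matched low-cycle partners. Low-cycle cardiomyocytes before matching held a median of only 11690 UMIs. Matching was weaker in the deepest cells, since 194 mitotic and 70 low-cycle cardiomyocytes had over 50000 UMIs. A minimum number of UMIs favours deep cells, so depth was also equalised. After all cells of at least 10000 UMIs were thinned to 10000 and 7975 shallower ones were left out, 1253 of 11738 cardiomyocytes (10.7%, 10.1% to 11.2%) held at least 5 UMIs of the 5 genes. At equal thinned depth these cells had been deeper in full, with a median of 23329 UMIs against 15467.5 in cardiomyocytes with 0 thinned UMIs of the 5 genes, 1.51 times as many.

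The threshold cut through a continuum. The 125 cardiomyocytes with 10 or 11 UMIs of the 5 genes had 62.3 CPM of MKI67, a proliferation antigen that the rule did not use, and the 176 with 8 or 9 UMIs, just outside, had 56.2 CPM. Across all 1395 the 5-gene sum had a median of 26 UMIs and a maximum of 270. At the other threshold, 31 cells with at least 10 mitotic UMIs had 20000 to 22000 CPM of the 12 heart genes, and 28 lay just below, at 18000 to 20000 CPM. UMI counts cannot tell a cell in late G2 from one in mitosis, and the rule set no limit on genes of S phase. A summed list of S phase genes had a ratio over matched low-cycle cells of 4.26 in cardiomyocytes with 10 to 19 UMIs. In those with 50 or more UMIs of the 5 genes the ratio was 2.50. How many of the chosen cells were in S phase was not tested. Mitotic here therefore names the rule and not a stage seen under a microscope.

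The shares per hashtag rest on the cells that could be given to 1 hashtag, which were 566 of the mitotic cardiomyocytes. The share of cardiomyocytes that were mitotic ranged from 3.80% in Hashtag2 (16 of 421) to 16.0% in Hashtag10 (75 of 468), with a median of 6.20%. Hashtag10 lay apart at 12.8% to 19.7%, while the next highest, Hashtag3, had 7.73% (5.73% to 10.1%). The summed level of the 5 genes over all cardiomyocytes of a hashtag, which does not depend on a count per cell, was also highest in Hashtag10, at 416 CPM, followed by Hashtag14 at 346 CPM and Hashtag3 at 294 CPM, and lowest in Hashtag1 at 176 CPM. After thinning the order changed, with Hashtag14 at 24.0% (41 of 171 cells) and Hashtag10 at 19.4% (75 of 387), and the rest at 6.96% to 14.3%. Cardiomyocytes of Hashtag14 were the shallowest, with a median of 8047 UMIs, and those of Hashtag10 the deepest, with 17576.5. Whether depth set either order was not tested.

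**Figure D1:**
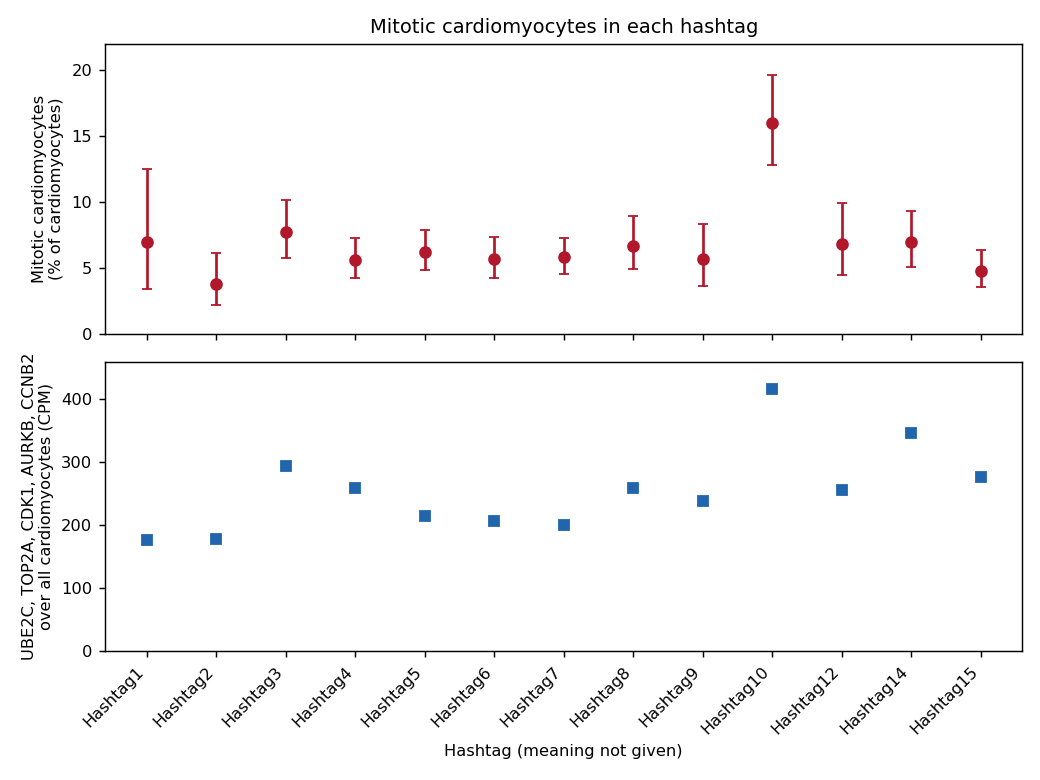
Upper plot: share of cardiomyocytes that were mitotic in each of the 13 hashtags (percent, points with exact 95% intervals). Lower plot: summed level of the 5 rule genes over all cardiomyocytes of the hashtag (CPM). Hashtag10 is highest in both, at 16.0% and 416 CPM, and Hashtag14 is second in the lower plot only.

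Doublets could mix a dividing cell with a resting cardiomyocyte. Of the mitotic cardiomyocytes 22.3% carried a second hashtag with at least 25% of the hashtag UMIs, against 30.7% of their matched low-cycle partners and 15.7% of all low-cycle cardiomyocytes. Scrublet, which scores likeness to summed pairs of cells, marked 15.9% of the mitotic cells and 27.1% of the matched ones. Markers of other cell types summed to lower or similar levels in mitotic and matched cells, at 85.2 and 116 CPM for 8 stromal genes, 256 and 306 CPM for 7 epithelial genes, 23.3 and 24.2 CPM for 7 endothelial genes, 6.34 and 9.38 CPM for 6 epicardial genes and 14.8 and 14.0 CPM for 6 pluripotency genes. Endoderm markers were the exception, at 309 CPM in mitotic cardiomyocytes and 197 CPM in matched ones. No marker of any of these lists was at 0 in either group, and within hashtags the endoderm sum ranged from 17.8 to 567 CPM (median 42.1) in mitotic and from 34.7 to 239 CPM (median 55.7) in low-cycle cells. The part of doublets in the results was not tested. Only the share of mitotic cardiomyocytes, the counts of genes higher and lower than in low-cycle cells and a few named ratios are repeated below without the marked barcodes.

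Of 8519 genes measured (at least 10 CPM and 10 UMIs on the higher side, the 17 rule genes left out), 518 (6.08%) were at least 1.5-fold higher and 71 (0.833%) at least 1.5-fold lower in mitotic than in matched low-cycle cardiomyocytes. The median gene had a ratio of 0.98. Of the higher genes, 160 were in the 30 gene lists and 358 in none. Without the barcodes Scrublet marked, 571 genes were higher and 107 lower. With only the barcodes of 1 hashtag, 744 were higher and 220 lower.

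The rule genes themselves differed because they chose the cells. UBE2C, which hands ubiquitin to the anaphase-promoting complex, averaged 478 CPM in mitotic and 3.39 CPM in low-cycle cells, and TOP2A, the topoisomerase that untangles sister chromatids, 392 and 3.66 CPM. CENPA, the histone that marks the centromere, was the 1 marker of these cells that the rule did not use. Across the 13 hashtags it ran from 47.6 to 128 CPM (median 85.4) in mitotic cells and from 0 to 6.28 CPM (median 0.543) in low-cycle ones, with no overlap. Pooled, it was at 60.5 and 0.454 CPM, a ratio of 133 (83.0 to 229). Its direction goes with that of the rule genes, which share its place in the cycle, so it is no independent check on the label.

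**Figure D2:**
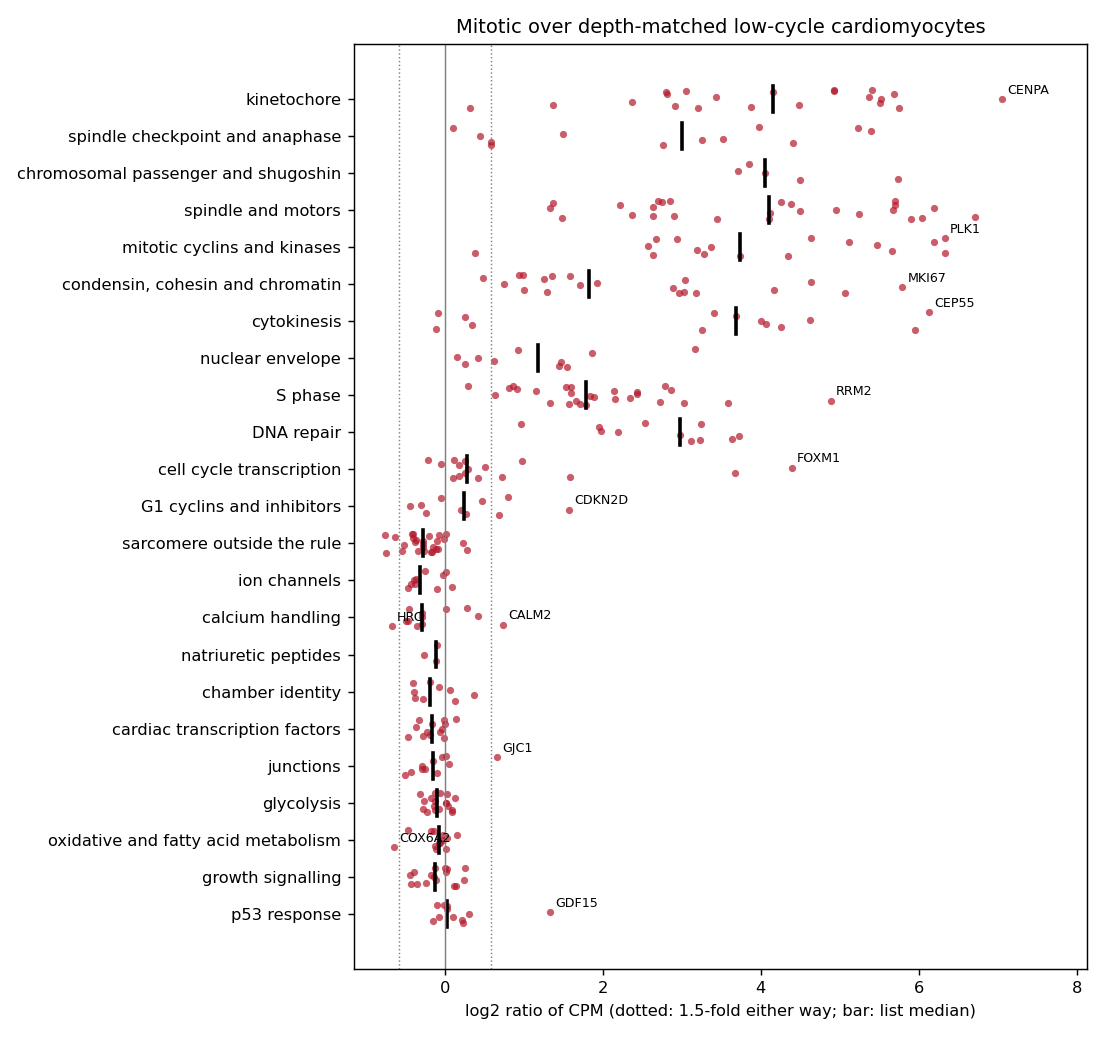
Each point is 1 measured gene outside the rule, placed by the log2 ratio of its CPM in mitotic over depth-matched low-cycle cardiomyocytes, with a bar at the median of its list and dotted lines at 1.5-fold. Lists of mitosis and DNA replication lie far to the right, with CENPA at a ratio of 133, while the heart lists gather just left of 0.

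Genes of the mitotic machinery were higher as a block. In 7 lists that cover kinetochore, checkpoint, chromosomal passengers, spindle, mitotic kinases, chromosome condensation and cytokinesis, 103 of 114 measured genes were at least 1.5-fold higher, none was lower, and the median ratio was 10.8, against 0.98 over all genes. Much of this follows from the choice of cells by 5 genes of the same phase. Ratios still separated the lists. The medians were 17.8 for the kinetochore, 17.2 for spindle and motors, 16.7 for the chromosomal passenger complex and shugoshins, 13.3 for mitotic cyclins and kinases, 12.9 for cytokinesis, 8.15 for the checkpoint and anaphase and 3.54 for condensin, cohesin and chromatin.

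At the kinetochore, 20 of 21 genes were higher. CENPF, a large protein of the outer kinetochore, ran from 427 to 805 CPM (median 542) over the hashtags in mitotic cells and from 4.91 to 31.4 CPM (median 12.1) in low-cycle cells. Every mitotic value lay above every low-cycle value. The pooled levels were 369 and 12.2 CPM, lower than any mitotic hashtag value, because the mitotic cells that could not be given to 1 hashtag enter only the pooled sum. SPC25 and NDC80, subunits of the complex that grips microtubules, had ratios of 53.9 (39.8 to 75) and 51.3 (39.3 to 68.3).

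Among the regulators, CCNB1, the cyclin that drives entry into mitosis, ran from 166 to 421 CPM (median 333) in mitotic cells and from 5.70 to 17.6 CPM (median 10.99) in low-cycle cells. Its pooled ratio was 24.8 (22.4 to 27.5). CCNA2 had a ratio of 80.8 (63.9 to 104) and PLK1, a kinase that acts on centrosomes, kinetochores and the cleavage furrow, 80.2 (59.7 to 111). CDC20, which activates the anaphase-promoting complex, ran from 89.0 to 251 CPM in mitotic and from 0 to 6.51 CPM in low-cycle cells. BIRC5, the survivin of the chromosomal passenger complex, was at 264 CPM in mitotic cells against 15.9 CPM, and all 5 genes of its list were higher. All 26 genes of spindle and motors were higher, among them CKAP2L at a ratio of 105, KIF2C at 73.2 and KIF4A at 65.9. Of these, CKAP2L rested on 12 UMIs in the low-cycle cells. Tubulin genes of the list are near-identical copies, so their own counts are uncertain.

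Cytokinesis bears on whether a cardiomyocyte divides or only its nucleus does. Here 9 of 13 genes were higher and 4 were within 1.5-fold. The higher ones included CEP55, which recruits the machinery of the final cut, at 35.5 CPM in mitotic and 0.508 CPM in low-cycle cells (ratio 69.99, 44.7 to 117), KIF20A at a ratio of 61.7, and CIT, the citron kinase of the midbody, at 24.6. ECT2, the activator of RhoA at the cleavage furrow, ran from 63.7 to 126 CPM in mitotic and from 0 to 10.3 CPM in low-cycle cells, a pooled ratio of 12.9 (11.1 to 15.0). ANLN, the scaffold of the contractile ring, had a ratio of 16.1 and RACGAP1, the partner of ECT2 in centralspindlin, 9.51. Those within 1.5-fold were RHOA, MYH9, MYH10 and CHMP4B, which cells also use outside division. RNA levels do not show whether the cells completed division.

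Condensation and the nucleus followed. MKI67 ran from 139 to 311 CPM (median 206) in mitotic and from 0 to 18.8 CPM (median 2.00) in low-cycle cells, which did not overlap. After each cell was thinned to 10000 UMIs, 63.9% of 1324 mitotic cardiomyocytes had a UMI of MKI67, against 2.19% of as many low-cycle cells. For CCNB1 the shares were 74.7% and 9.82%, for CENPF 81.9% and 10.6%, and for PLK1 47.1% and 1.44%. CENPA had a UMI in only 38.4% of the thinned mitotic cells, against 0.151% of the low-cycle ones. The low-cycle share includes any free RNA in the droplets. Of 10 genes of the nuclear envelope 7 were higher, with KPNA2, an importin, at 9.02-fold and LMNB1, a B-type lamin, at 3.63-fold.

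Replication genes were higher too, by less. In the S phase list 26 of 27 measured genes were higher and none lower, with a median ratio of 3.46. RRM2, the cycle-regulated subunit of ribonucleotide reductase, was at 50.6 CPM in mitotic and 1.71 CPM in low-cycle cells (ratio 29.6, 23.1 to 38.5). PCNA, the sliding clamp of DNA polymerase, ran from 75.4 to 148 CPM (median 112) in mitotic and from 11.5 to 33.5 CPM (median 25.1) in low-cycle cells, without overlap, and its pooled ratio was 3.59 (3.35 to 3.84). All 11 measured DNA repair genes were higher, including RAD51AP1 at 13.3 and BRCA2 at 9.37. HIST1H4C, a replication-dependent histone H4 gene with many near-identical copies, was at 927 and 75 CPM. HIST2H2BE, an H2B gene, went the other way. It ran from 4.88 to 26.8 CPM (median 15.8) in mitotic and from 32.7 to 77.0 CPM (median 55.0) in low-cycle cells, with no overlap, at a pooled ratio of 0.45 (0.42 to 0.49).

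Of the transcription factors of the cycle, 5 of 16 were higher. FOXM1 had a ratio of 21.0 (16.9 to 26.3) and MYBL2 of 12.7 (10.9 to 14.8), E2F8 of 2.99, LIN54, a DNA-binding subunit of DREAM, of 1.97, and E2F1 of 2.90.

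Promoters of the higher genes were read for the CHR, given by the letters TTTGAA or TTCGAA on either strand, and for CCAAT on either strand. RefSeq promoters (GRCh38.p14, 250 bases before to 50 after the start) could be matched by symbol to 6926 of the 8519 measured genes. Of the promoters of 77 genes at least 10-fold higher in mitotic cells, 68.8% held a CHR match, 71.4% a CCAAT and 55.8% both. For 50 genes 5-fold to 10-fold higher the shares were 40.0%, 54.0% and 28.0%, and for 287 genes 1.5-fold to 5-fold higher 24.0%, 52.96% and 15.0%. For 6460 genes within 1.5-fold they were 9.46%, 36.5% and 3.75%, and for 52 lower genes 15.4%, 42.3% and 7.69%. Over all 35116 promoters 16.4% held a CHR match, 34.6% a CCAAT and 6.38% both. The share of promoters with a CHR thus climbed with the size of the ratio. The ratios follow in part from the choice of cells by 5 genes of 1 phase, so this climb is description only. With TTTGAA alone the share in the top group was 62.3%, against 8.10% within 1.5-fold.

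The S phase list differed in its CHR and E2F matches but not in CCAAT, which 65.2% of its 23 promoters held, against 37.7% of those of measured genes. Only 8.70% of the S phase promoters held a CHR match, while 52.2% held an E2F match (TTTCCCGC or TTTGGCGC on either strand). That motif was found in 2.27% of all promoters and in 4.26% of the 6926 promoters of measured genes. Its share was 6.49% in genes at least 10-fold higher, 16.0% at 5-fold to 10-fold and 13.2% at 1.5-fold to 5-fold. With TTTGCCGC and TTTCGCGC added, the S phase share was 56.5%, against 3.31% of all promoters and 5.98% of those of measured genes. The same groups of higher genes then had 6.49%, 20.0% and 16.4%. The E2F letters and the bins of the ratio were set after the ratios were known. Of the 23 promoters of spindle and motors 73.9% held a CHR match and 13.04% an E2F match of the first 2 forms.

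The promoters with both a CHR and a CCAAT and the largest ratios are shown to give the layout of the 2 motifs in such genes. They were picked for holding both, and CCNA2 and KIF2C, with larger ratios than the last 3, are not among them. Capitals mark every match of either motif, and letters run 5′ to 3′ along the gene's strand, with the start site at base 251. CENPA is at chr2:26785806-26786105 on the plus strand, CKAP2L at chr2:112764560-112764859 on the minus strand, PLK1 at chr16:23678639-23678938 on the plus strand, CDCA3, which triggers entry into mitosis, at chr12:6851237-6851536 on the minus strand, CEP55 at chr10:93496362-93496661 on the plus strand, and KIF4A, a chromosome-bound motor, at chrX:70289854-70290153 on the plus strand.
CENPA: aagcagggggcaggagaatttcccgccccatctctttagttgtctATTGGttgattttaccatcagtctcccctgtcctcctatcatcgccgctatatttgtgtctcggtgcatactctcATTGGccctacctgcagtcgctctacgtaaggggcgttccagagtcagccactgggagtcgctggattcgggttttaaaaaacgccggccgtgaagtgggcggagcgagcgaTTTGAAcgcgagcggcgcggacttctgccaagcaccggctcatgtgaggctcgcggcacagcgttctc
CKAP2L: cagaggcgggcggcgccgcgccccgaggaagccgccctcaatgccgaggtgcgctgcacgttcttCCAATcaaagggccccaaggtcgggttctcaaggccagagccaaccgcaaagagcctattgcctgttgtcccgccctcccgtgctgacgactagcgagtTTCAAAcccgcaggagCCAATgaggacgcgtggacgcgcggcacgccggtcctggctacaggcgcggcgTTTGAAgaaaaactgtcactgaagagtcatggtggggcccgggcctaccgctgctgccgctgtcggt
PLK1: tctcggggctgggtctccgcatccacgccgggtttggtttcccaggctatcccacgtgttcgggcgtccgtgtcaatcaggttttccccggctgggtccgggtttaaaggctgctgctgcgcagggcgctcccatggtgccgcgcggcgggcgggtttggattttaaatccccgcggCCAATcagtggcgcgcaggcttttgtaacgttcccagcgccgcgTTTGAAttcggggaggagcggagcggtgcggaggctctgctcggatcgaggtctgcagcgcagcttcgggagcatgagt
CDCA3: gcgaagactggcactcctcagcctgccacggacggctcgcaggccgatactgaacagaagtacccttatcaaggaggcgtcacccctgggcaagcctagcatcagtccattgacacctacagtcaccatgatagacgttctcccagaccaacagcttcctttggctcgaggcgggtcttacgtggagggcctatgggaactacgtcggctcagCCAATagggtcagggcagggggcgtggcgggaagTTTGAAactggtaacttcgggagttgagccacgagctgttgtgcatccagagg
CEP55: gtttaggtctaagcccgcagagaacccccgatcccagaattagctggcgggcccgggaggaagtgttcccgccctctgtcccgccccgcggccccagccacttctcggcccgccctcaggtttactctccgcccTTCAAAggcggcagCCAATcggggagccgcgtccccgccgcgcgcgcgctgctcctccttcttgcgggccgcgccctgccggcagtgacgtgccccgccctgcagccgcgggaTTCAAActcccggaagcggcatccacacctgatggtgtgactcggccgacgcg
KIF4A: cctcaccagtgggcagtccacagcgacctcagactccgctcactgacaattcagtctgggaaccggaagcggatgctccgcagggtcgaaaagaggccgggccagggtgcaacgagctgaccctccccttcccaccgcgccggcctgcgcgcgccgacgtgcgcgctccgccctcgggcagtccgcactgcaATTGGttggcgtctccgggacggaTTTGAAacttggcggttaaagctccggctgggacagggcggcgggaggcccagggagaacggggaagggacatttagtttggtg

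CDCA3 and PLK1 share a layout with a CCAAT upstream of a CHR that lies close to the start. In CDCA3 the CHR starts 3 bases before the start site and the CCAAT 34 bases farther upstream. In PLK1 the CHR starts 29 bases before the start and the CCAAT 44 bases upstream of it, and in KIF4A the CCAAT, on the other strand, starts 24 bases upstream of the CHR. CENPA has its CHR 18 bases before the start and 2 inverted CCAAT boxes, the nearer 112 bases upstream. CKAP2L and CEP55 each hold 2 CHR matches. No CHR match overlaps a CCAAT match in these promoters. Over the 43 genes at least 10-fold higher that held both motifs, the nearest pair started a median of 28 bases apart (5 to 253). A match is only a match of letters and shows no binding.

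Inhibitors of the cycle did not move together. Of 10 measured G1 cyclins and inhibitors 3 were higher and none lower. CDKN2D, an inhibitor of the kinases of G1, ran from 25.5 to 67.3 CPM (median 40.6) in mitotic and from 4.01 to 12.1 CPM (median 9.21) in low-cycle cells, without overlap, at a pooled ratio of 2.98 (2.65 to 3.35). CDKN1B, which encodes p27, ran from 89.9 to 137 CPM (median 117) in mitotic and from 39.1 to 82.1 CPM (median 62.7) in low-cycle cells, again without overlap, at a ratio of 1.61 (1.52 to 1.69). CDK2 had a ratio of 1.74. The 2 inhibitors often named for cardiomyocyte arrest stayed within 1.5-fold: CDKN1A, which encodes p21, had a ratio of 1.39 (1.29 to 1.49), higher in 11 of 13 hashtags, and CDKN1C, which encodes p57, 0.97 (0.94 to 1.01). The G1 cyclins CCND1 and CCND2 had ratios of 0.73 and 0.85 and were lower in 11 and 12 of 13 hashtags.

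Few heart genes passed 1.5-fold. A set of 5 lists covers sarcomere genes outside the rule, ion channels, calcium handling, natriuretic peptides and cardiac transcription factors. Of their 65 measured genes 1 was higher, 4 were lower and 54 had a ratio under 1. Their median ratio was 0.84 against 0.98 over all genes, so a ratio under 1 was also the more frequent case among all measured genes. Of those 8519 genes 6.08% were higher and 0.833% lower. With TMM scaling the median of the 5 lists was 0.86 and 49 of their genes were under 1. The choice of cells by summed heart genes bears on these lists, and the 12 rule genes themselves, with TTN at a ratio of 0.73 and MYL7 at 0.99, are given only as description. The median of the summed rule genes was 37578 CPM in mitotic and 42550 CPM in matched cells.

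Among sarcomere genes outside the rule none of 27 was higher and 3 were lower. TCAP, the titin cap at the Z-disc, ran from 42.7 to 130 CPM (median 81.8) in mitotic and from 114 to 367 CPM (median 214) in low-cycle cells, lower in all 13 hashtags with a small overlap, and its pooled ratio, which includes cells of no single hashtag, was 0.59 (0.58 to 0.61). SYNPO2L, a Z-disc protein, was lower in all 13 at a ratio of 0.65, and LMOD2, which elongates thin filaments, in 10 of 13 at 0.59. MYH6, the alpha myosin heavy chain, ran from 2022 to 3769 CPM in mitotic and from 2850 to 4453 CPM in low-cycle cells, lower in 12 of 13 hashtags, at a ratio of 0.82 (0.82 to 0.83), and ACTC1, the cardiac actin, had a ratio of 1.01.

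Of 12 measured calcium handling genes 1 was higher, 1 was lower and 10 were within 1.5-fold, with a median ratio of 0.82. HRC, a calcium-binding protein of the sarcoplasmic reticulum, ran from 39.7 to 83.0 CPM (median 59.3) in mitotic and from 88.2 to 164 CPM (median 119) in low-cycle cells, with no overlap, at a ratio of 0.63 (0.60 to 0.66). RYR2, the release channel of the same store, did not pass 1.5-fold but was lower in all 13 hashtags, at 137 to 206 CPM (median 168) in mitotic and 188 to 310 CPM (median 246) in low-cycle cells, a ratio of 0.72 (0.70 to 0.74). CALM2, a gene of calmodulin, was the 1 gene of the list that was higher, at 641 to 1027 CPM (median 869) in mitotic and 358 to 633 CPM (median 470) in low-cycle cells, with no overlap and a ratio of 1.66 (1.63 to 1.69). CALM3, which encodes the same protein, had a ratio of 1.34, within 1.5-fold, also without overlap. The calmodulin genes differ mainly outside the coding sequence, so reads of one could be counted for another.

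**Figure D3:**
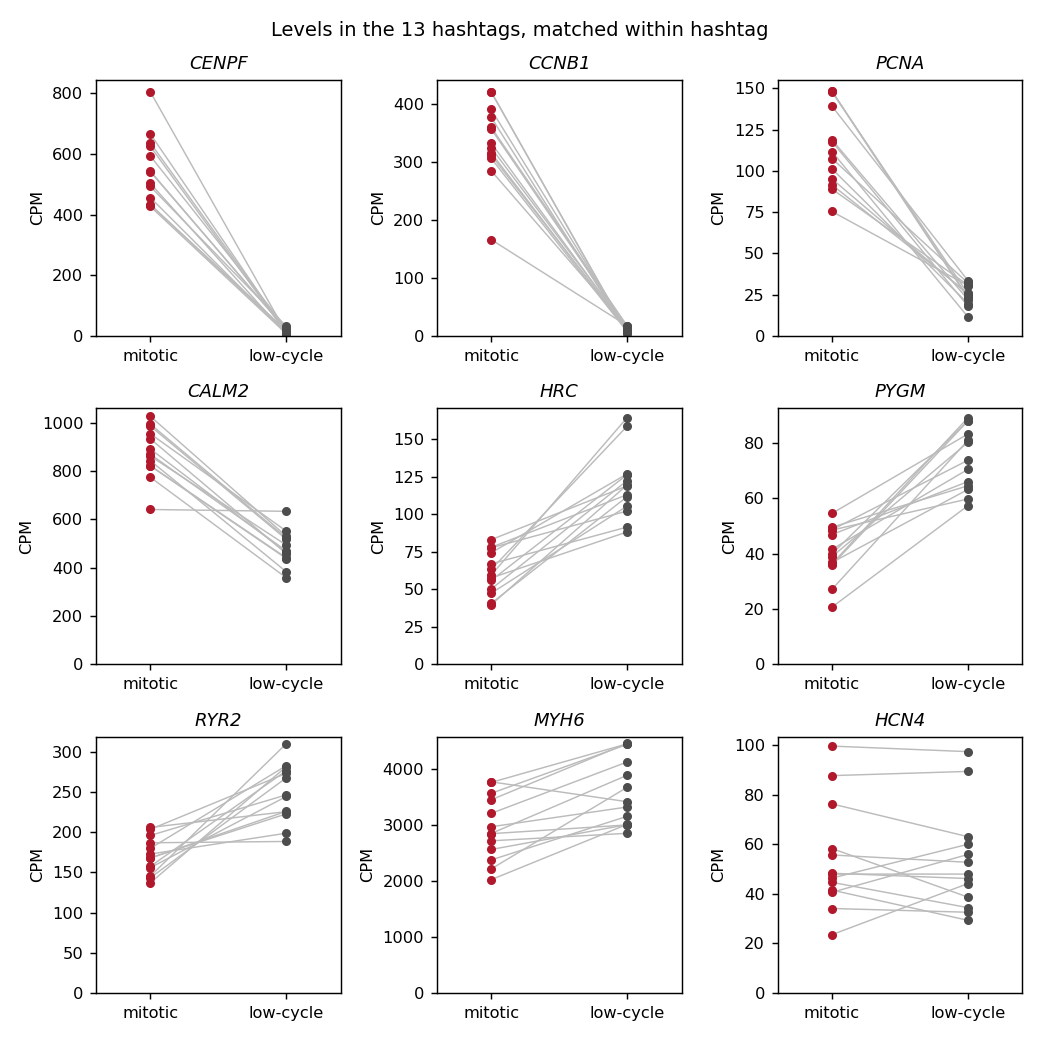
Level (CPM) of 9 genes in mitotic cardiomyocytes (red, left) and in low-cycle cardiomyocytes matched on UMIs within the same hashtag (grey, right), with a line for each of the 13 hashtags. CENPF, CCNB1, PCNA and CALM2 are higher in every hashtag, HRC, PYGM and RYR2 lower in every one, and HCN4 lies at a median of 48.0 CPM in both.

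None of 10 ion channel genes, 9 chamber genes, 13 cardiac transcription factors or 3 natriuretic peptide genes passed 1.5-fold, as was so for 7930 of the 8519 measured genes. SHOX2, a factor of pacemaker cells, was too low to be measured, at 1.502 CPM in mitotic and 4.03 CPM in low-cycle cells (ratio 0.37, 0.27 to 0.50), and was higher in 3 and lower in 6 of 13 hashtags. HCN4, the pacemaker channel, ran from 23.5 to 99.7 CPM in mitotic and from 29.3 to 97.5 CPM in low-cycle cells, with the same median of 48.0 CPM and a ratio of 0.98 (0.92 to 1.04). NKX2-5, the cardiac homeobox factor, had a ratio of 0.96 and was higher in 8 of 13 hashtags. NR2F2, a factor of atrial cells, had a ratio of 1.09 and HEY2, a factor of ventricular cells, of 0.77, lower in 12 of 13. Between them the 2 natriuretic peptides NPPA and NPPB had ratios of 0.92 and 0.93. The list of 11 junction genes held 1 higher gene, GJC1, which encodes connexin 45, at a ratio of 1.58 (1.44 to 1.73) and higher in all 13.

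Metabolism and growth lists had few calls, as did all measured genes. None of 18 glycolysis genes and none of 16 growth signalling genes passed 1.5-fold, and of 13 oxidative genes 1 was lower, COX6A2, the muscle form of a cytochrome oxidase subunit, at 0.64 (lower in 12 of 13 hashtags). Outside the lists, PYGM, the glycogen phosphorylase of muscle, ran from 20.7 to 54.5 CPM (median 39.9) in mitotic and from 57.3 to 89.0 CPM (median 73.7) in low-cycle cells, with no overlap and a ratio of 0.65 (0.61 to 0.69). DMD, which encodes dystrophin, was lower in all 13 hashtags at a ratio of 0.57, and HSPB3, a small heat shock protein of muscle, at 0.63. MALAT1, a nuclear RNA, had a ratio of 0.76 but was lower in only 9 of 13. A few calls did not recur. GDF15, a stress cytokine among the p53 targets, was higher in 6 of 13 hashtags and lower in 5 at a pooled ratio of 2.51, and the endoderm genes APOA2 and SERPINA1, at 3.60 and 2.10, were higher in 6 and 7 of 13, and without the barcodes Scrublet marked their ratios were 0.37 and 0.77.

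Across the hashtags, 401 of the 518 higher genes were higher in all 13, and 17 of the 71 lower genes were lower in all 13. In the 11 hashtags with at least 20 mitotic cells the counts were 445 and 24. Over all 8519 measured genes, 598 were higher and 213 lower in all 13, and 1708 were lower in 10 or more. Hashtag ranges did not overlap for 329 genes with mitotic cells above (3.86% of those measured) and for 5 genes with mitotic cells below (0.0587%). Those below included HIST2H2BE, HRC, PYGM and IFITM2, an interferon-induced membrane protein at a ratio of 0.76. IFITM2, CALM3 and the 4 cytokinesis genes within 1.5-fold were named after their values were seen.

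Cardiomyocytes with 3 to 9 (1084 cells), 10 to 19 (517), 20 to 49 (507) and 50 or more UMIs (371) were each set against matched low-cycle cells. The steps are made from mitotic genes, so the climb of those genes is description, and cells of higher steps were also deeper, with median UMIs of 17408.5, 22009, 26616 and 29973. CCNB1 stood at 53.3, 125, 181 and 482 CPM and PLK1 at 10.98, 29.6, 60.1 and 205 CPM, against 9.65 and 1.52 CPM in all low-cycle cells. The summed S phase list had ratios of 3.06, 4.26, 3.67 and 2.50. PCNA had ratios of 3.28, 4.92, 3.85 and 1.93, MCM5, a subunit of the replicative helicase, 3.42, 3.80, 2.61 and 1.24, and E2F1 3.76, 4.88, 3.12 and 1.01 (0.70 to 1.46), so that E2F1 was not detectably different from low-cycle cells at the top step. Other replication genes did not turn down in this way, with TYMS at 3.57, 5.45, 5.56 and 5.23 and RRM2 at 14.5, 33.2, 26.3 and 31.9. HIST1H4C was highest at the third step, at 238, 767, 1279 and 675 CPM.

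2 inhibitors climbed with the steps. CDKN2D had ratios of 1.24, 1.91, 2.80 and 4.16 (3.42 to 5.10) and CDKN1B of 1.04, 1.204, 1.51 and 2.15 (1.96 to 2.36), so the difference in CDKN1B lay in the cells with the most mitotic transcripts. CDKN1A peaked at the third step, with 0.91, 1.36, 1.67 and 1.13. CALM2 climbed from 1.09 at the first step to 2.10 (2.03 to 2.16) at the top, and HIST2H2BE was already at 0.58 in the first step and reached 0.36 (0.31 to 0.42). Heart genes varied. TCAP had ratios of 0.67, 0.61, 0.61 and 0.56 and RYR2 of 0.81, 0.73, 0.73 and 0.71, while ACTC1 had 0.96, 1.02, 1.02 and 0.98 and the summed sarcomere list 0.96, 0.93, 0.92 and 0.93.

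**Figure D4:**
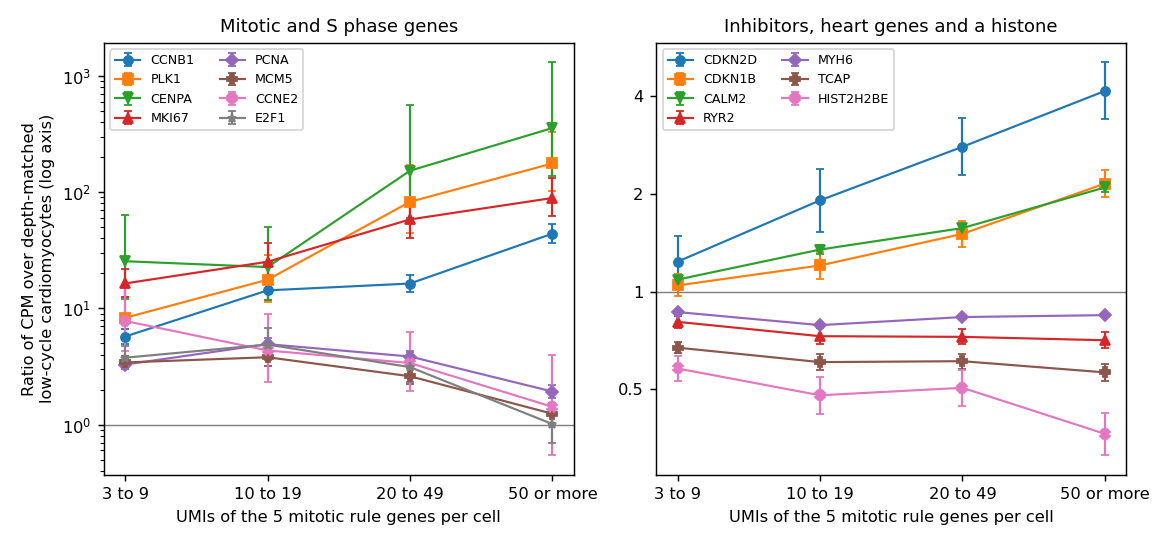
Ratio of CPM over depth-matched low-cycle cardiomyocytes (log axis, exact 95% intervals) in cardiomyocytes grouped by their UMIs of the 5 mitotic rule genes. Left, CCNB1, PLK1, CENPA and MKI67 are highest at the top step while PCNA, MCM5, CCNE2 and E2F1 turn down after the step of 10 to 19 or before it. Right, CDKN2D, CDKN1B and CALM2 climb and HIST2H2BE, TCAP, RYR2 and MYH6 stay under 1.

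Mitotic cardiomyocytes thus varied among themselves. In the 1324 thinned cells, the summed UMIs of the kinetochore list had a median of 14 with quartiles of 9 and 22, against 1 in low-cycle cells, and 2 cells had none. The S phase list had a median of 16 with quartiles of 10 and 28, against 4. Of the mitotic cells 92.4% exceeded the 95th percentile of low-cycle cells for the kinetochore and 57.5% did for S phase. Kinetochore and spindle sums went together from cell to cell (Spearman rho 0.78), as did kinetochore and cytokinesis (0.70), while the 7 mitotic lists and the S phase list did not (0.04). These are descriptions over 1324 cells of 1 library that share its depth and its free RNA.

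Mitotic cardiomyocytes were last set against the 458 mitotic cells of the same pool that failed the cardiomyocyte rule, which made up 13.9% (12.7% to 15.1%) of the 3293 cells outside it. Summed endoderm, epithelial and stromal markers stood at 75.4, 198 and 55.3 CPM in the 458 cardiomyocytes matched to them on UMIs, against 3305, 972 and 891 CPM in these other cells, which were a mixture. A second hashtag was carried by 16.6% of the matched mitotic cardiomyocytes and 21.0% of the other mitotic cells. Of 9358 measured genes 1232 (13.2%) were higher and 1941 (20.7%) lower in mitotic cardiomyocytes. With TMM scaling 1794 were higher and 1325 lower, and the median log2 ratio of all genes moved from -0.12 to 0.07, so small ratios in this comparison depend on the scaling. Heart lists, which the rule bears on, held 56 higher genes of 66.

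Most genes of the mitotic machinery were within 1.5-fold. In the 7 mitotic lists 6 of 116 genes were higher, 6 were lower and 104 were within it, against 6185 of 9358 genes within it over all, with a median ratio of 0.95, or 1.07 with TMM scaling. CCNB1 stood at 335 and 341 CPM, CDC20 at 179 and 180 CPM, PLK1 at 120 and 112 CPM and ECT2 at 90.6 and 87.3 CPM in mitotic cardiomyocytes and other mitotic cells. Without matching none was higher and 39 were lower. Both groups passed the same minimum of UMIs of the mitotic rule genes, and the compared cells were matched on total UMIs. Likeness in other genes of the same phase is therefore partly set by the choice of cells. How much of it the choice sets was not tested.

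Some genes did differ, and 7 hashtags held at least 10 mitotic cells of each kind. Hashtag values against other mitotic cells, here and below, are over all such cells and were not matched on UMIs. The pooled ratios are of matched cells. ANLN was higher in all 7, at 80.2 to 160 CPM (median 116) in cardiomyocytes and 34.5 to 107 CPM (median 78.2) in other cells, a pooled ratio of 1.77 (1.61 to 1.96). KIF15, a spindle motor, was lower in all 7 with no overlap, at 5.93 to 25.1 CPM (median 14.7) and 39.3 to 83.3 CPM (median 58.9), a ratio of 0.26 (0.22 to 0.32). CENPF was lower in all 7 at a ratio of 0.60, and LMNB1 at 0.51, while MYH9, the nonmuscle myosin of the cleavage furrow, was lower in 6 at 0.58. TUBB4B, CENPM, PTTG1, CDC25B and CDKN3 were the other higher genes, at 1.54 to 1.74, and SKA1, BORA and INCENP the other lower ones, at 0.46 to 0.66. Not all of these recurred. TUBB4B was higher in all 7 hashtags, CENPM and CDC25B in 6, and PTTG1 and CDKN3 in only 4. SKA1 was lower in all 7, BORA in 6 and INCENP in 5. MKI67 was at 197 and 284 CPM, a ratio of 0.69.

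Of 10 measured G1 cyclins and inhibitors 2 were higher, 2 were lower and 6 were within 1.5-fold, with a median ratio of 1.04. CCND1 was lower in all 7 hashtags, at 2.79 to 26.6 CPM (median 19.7) in mitotic cardiomyocytes and 30.9 to 209 CPM (median 63.2) in other mitotic cells, with no overlap and a ratio of 0.29 (0.25 to 0.34). CDKN1A was higher in 6 of 7, at 16.2 to 67.7 CPM (median 35.6) and 0 to 51.0 CPM (median 3.09), a ratio of 4.24 (3.45 to 5.26). CDKN2D was higher in all 7 at 1.88 (1.57 to 2.25). TYMS, the thymidylate synthase, was higher in all 7 with no overlap, at 417 to 557 CPM (median 499) in mitotic cardiomyocytes and 107 to 310 CPM (median 237) in other mitotic cells, a ratio of 2.24 (2.13 to 2.36). Of the growth regulators, LIN28B was at 9.15 and 48.3 CPM and IGF2 at 1.72 and 60.6 CPM, while ERBB4, a neuregulin receptor of heart muscle, was at 76.5 and 26.5 CPM. The other cells are of several types, and which of them sets each difference was not tested.

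**Figure D5:**
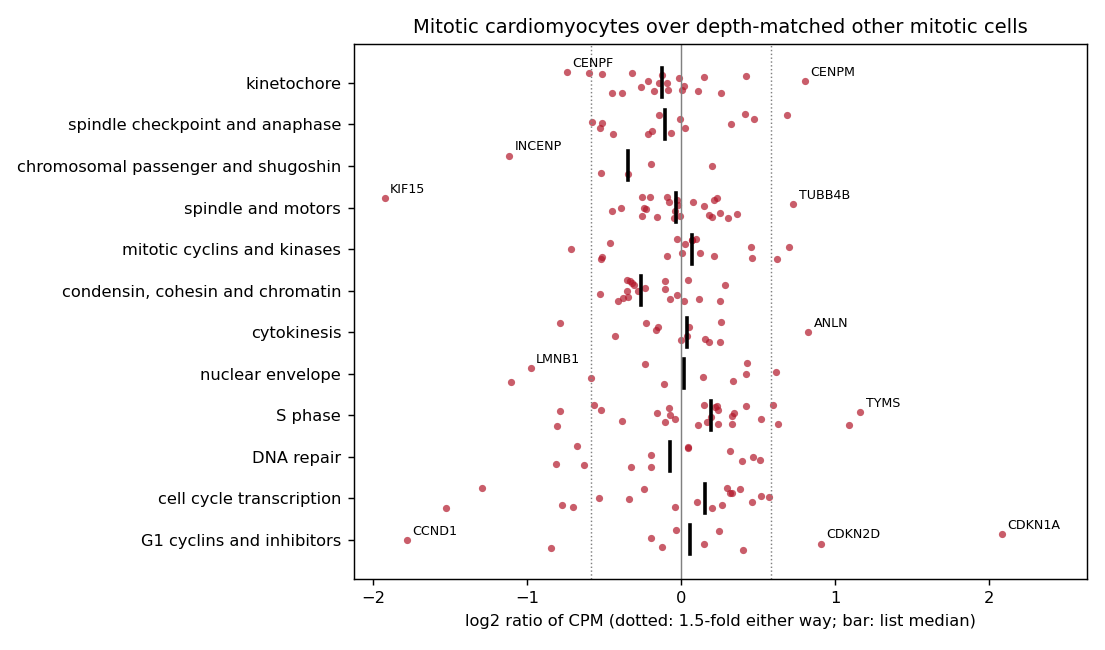
Each point is 1 measured gene outside the rule, placed by the log2 ratio of its CPM in mitotic cardiomyocytes over depth-matched mitotic cells outside the cardiomyocyte rule, with bars at list medians and dotted lines at 1.5-fold. Most mitotic genes lie between the dotted lines, with KIF15 at a ratio of 0.26, CCND1 at 0.29 and CDKN1A at 4.24 outside them.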

How the data were processed

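The deposited file is a single matrix of counts, as UMIs, over 36601 genes and 13 hashtags, made by the authors with Cell Ranger 4.0.0 per the file headers and with hg38 per the submitters' processing notes. Settings of the aligner and of cell calling were not found in these sources. Members, gene lists, motifs and comparisons were chosen with earlier results of these data known.

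UMIs were summed over cells and given as CPM. Pairs were matched on log total UMIs, deepest cell first, without reuse. Ratios have exact conditional binomial intervals, and a side with 0 counts would be set at 3 counts. A hashtag was given to a barcode with at least 20 hashtag UMIs, 70% or more of them from 1 hashtag. Pairs of mitotic and low-cycle cardiomyocytes were then matched within it. Hashtag values against other mitotic cells were not matched. Scrublet (scanpy 1.11.5, threshold 0.391) marked 2314 barcodes (10.7%, against 17.3% expected), which stayed in unless stated. TMM used edgeR 4.0.16. The text names the rule genes and CENPA, up to 4 genes per list and direction by ratio, 10 per direction outside lists (minimum 50 CPM), and well-known genes of the cycle and the heart. Some of the genes this allows are left to the counts. The ratio code was tested on simulated data. Python 3.11.15 and scipy 1.17.1 were used. Some genes are not reported here.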

Additional observations from a re-analysis of the deposited data

How the results depend on the processing

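No paired analysis was possible because the labels give no replicates of any group, so no test could be blocked. Pairing cells within hashtags, whose meaning is unknown, gave 715 higher and 226 lower genes against low-cycle cells. The share of mitotic cardiomyocytes was 8.20% with a stricter cell filter, 6.99% with none, 7.19% without Scrublet-marked barcodes, 6.48% in barcodes of 1 hashtag, 4.79% from 20 UMIs, 6.82% from 30000 CPM and, chosen after seeing the data, 10.7% after thinning. Leaving out each hashtag gave 7.39% to 7.77%. Here and below, that removed only the barcodes given to the hashtag. Only 566 of the 1395 mitotic cardiomyocytes had been given to 1 hashtag, so most of them stayed in every run.

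Against low-cycle cells, 508 to 522 genes were higher and 60 to 78 lower when each hashtag was left out. Higher genes were 183 at a minimum of 50 CPM and 1492 with no minimum beyond 10 counts. Lower genes were 107 without marked barcodes, 220 in barcodes of 1 hashtag, 46 with TMM, 19 and 1384 with the 2 minimums, 183 without matching and 112 against cells with 0 UMIs. Matching within 10% of total UMIs, added later, kept 1298 pairs and gave 575 higher and 87 lower. Against other mitotic cells, leaving out each hashtag gave 1208 to 1252 higher and 1895 to 1974 lower genes. From 30000 CPM there were 485 higher and 1072 lower, at 50 CPM 557 and 515, and with no minimum 2152 and 4228.

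Of 3375 ratios of named genes against low-cycle cells 4 reversed. Without marked barcodes COL3A1 was at 1.32, APOA2 at 0.37 and SERPINA1 at 0.77, and without matching COL3A1 was at 1.02. Of 4056 against other mitotic cells 582 fell outside the main interval, 125 of 169 of them from 30000 CPM, and 1 reversed, GDF15 at 0.89 from 30000 CPM. The cause was not tested. Depth limits genes under 10 CPM, which were not compared.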
